A study of Mus musculus with 9 samples.

Results

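The immediate early response genes described here are Junb, Fosl1, Ier2, Ier3, Ier5, Klf6 and Dusp1, 7 of the 5608 genes in the table. They are grouped by their known role, and the set was chosen with earlier results of these data known. Their NCBI gene identifiers in the table are 16477 (Junb), 14283 (Fosl1), 15936 (Ier2), 15937 (Ier3), 15939 (Ier5), 23849 (Klf6) and 19252 (Dusp1). Expression was measured by strand-specific mRNA sequencing of the livers of 9 wild-type C57BL/6 J mice from a short-term experiment that compared the liver response to intermittent fasting with that to a fasting-mimicking diet. The 3 FED mice ate standard diet ad libitum, the 3 IF mice had food withheld for 24 h on 2 occasions with refeeding between them, and the 3 FMD mice received a fasting-mimicking diet of reduced calories for 3 days. The age of the mice is not given in the sources used here. The FED and IF libraries are numbered 1, 2 and 3, the FMD libraries 1, 2 and 4.

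Immediate early genes are transcribed within minutes of a stimulus by factors that are already present in the cell, so no new protein has to be made first. Growth factors, cytokines and stress reach them through MAP kinases and serum response factor, hormones through cAMP and CREB, and many of their mRNAs are short-lived. In liver the class is known from regeneration and injury, and genes that answer to glucagon and glucocorticoid, the hormones of fasting, belong to it as well. In this set, Junb and Fosl1 encode subunits of the dimeric transcription factor AP-1, Ier2, Ier3 and Ier5 encode small regulators of transcription and survival signalling, Klf6 encodes a zinc finger transcription factor, and Dusp1 encodes a nuclear phosphatase that switches MAP kinases off.

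The stretches just upstream of the transcription start are shown for the 4 genes that stand for the different patterns described below. Klf6 and Ier3 were the pair of members with the most alike values, Dusp1 was also high in 2 of the 3 IF libraries, and Junb was not called in any comparison. Each stretch is the 250 bases before the RefSeq start (build GRCm38.p6), read 5′ to 3′ on the strand of the gene. Capitals mark the CCAAT box (CCAAT, or ATTGG on the opposite strand) and the cAMP response element (TGACGTCA) or its TGACG core.
Klf6: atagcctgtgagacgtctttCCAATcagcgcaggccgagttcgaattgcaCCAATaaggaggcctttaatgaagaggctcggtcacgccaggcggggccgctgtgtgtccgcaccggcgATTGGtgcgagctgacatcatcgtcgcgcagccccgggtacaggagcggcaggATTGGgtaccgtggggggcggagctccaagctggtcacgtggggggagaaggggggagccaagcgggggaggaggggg
Ier3: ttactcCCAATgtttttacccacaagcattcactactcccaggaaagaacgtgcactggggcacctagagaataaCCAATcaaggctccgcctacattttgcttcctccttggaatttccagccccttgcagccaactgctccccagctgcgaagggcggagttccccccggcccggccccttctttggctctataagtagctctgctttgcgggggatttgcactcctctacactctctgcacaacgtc
Dusp1: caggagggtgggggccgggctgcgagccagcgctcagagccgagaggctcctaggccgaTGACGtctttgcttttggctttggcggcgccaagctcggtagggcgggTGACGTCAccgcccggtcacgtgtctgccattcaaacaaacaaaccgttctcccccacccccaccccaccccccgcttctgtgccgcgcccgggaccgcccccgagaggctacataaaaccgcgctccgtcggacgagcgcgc
Junb: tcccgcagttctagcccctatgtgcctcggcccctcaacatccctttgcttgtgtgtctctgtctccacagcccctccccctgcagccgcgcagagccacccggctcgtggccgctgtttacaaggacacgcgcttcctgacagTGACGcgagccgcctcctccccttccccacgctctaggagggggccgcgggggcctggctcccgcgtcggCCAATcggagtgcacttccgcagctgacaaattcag
The stretches lie at chr13:5861239-5861488 (plus strand) for Klf6, chr17:35821463-35821712 (plus) for Ier3, chr17:26508473-26508722 (minus) for Dusp1 and chr8:84978749-84978998 (minus) for Junb. Of the 7 genes, 5 were matched, the fifth being Ier5 at chr1:155099637-155099886 (minus), and Fosl1 and Ier2 are only named here. The full cAMP response element was found in Dusp1, beginning 143 bases before the start, and in 1.55% of the 32851 promoters searched on both strands. Its TGACG core had 3 matches in Dusp1, 2 of them inside the full element, and 1 in Junb, 106 bases before the start, and was in 17.8% of all promoters. The CCAAT box had 4 matches in Klf6, 2 each in Ier3 and Ier5, 1 in Junb and 0 in Dusp1, against 33.8% of all promoters with a match. The AP-1 site (TGANTCA), the CArG box of serum response factor and the letters TATAAA were found in 0 of the 5, against 6.75%, 1.47% and 12.4% of all promoters. The GC content of the 5 stretches was 54.4% to 68.4%, above the 52.4% median of all promoters. A match of letters is a description of the sequence, and binding was not measured.

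Values are TPM (a transcript level normalised for transcript length and library total), and the depth of the libraries is unknown because TPM keeps no read counts. The table lists part of each library, and the listed genes made up 26.3% to 29.3% of all TPM in FED, 32.9% to 34.9% in IF and 34.9% to 43.0% in FMD. Most listed genes were higher in the diet groups, and the median log2 fold change of the 4665 genes tested was 0.24 in IF vs FED, 0.48 in FMD vs FED and 0.24 in FMD vs IF. Each result is therefore also given after scaling, in which each library is divided by 1 factor, the median over genes of its value relative to the geometric mean over the libraries. These factors were 0.815 to 0.843 in FED, 0.962 to 1.03 in IF and 1.09 to 1.43 in FMD, the highest being that of FMD replicate 1. Scaling assumes that the median listed gene did not change, and whether that holds for this part of the libraries was not tested. A call lost after scaling depends on that assumption and is not thereby shown to be false. Of 15 hepatocyte markers only Ass1, an enzyme of the urea cycle, was listed, at 2965 to 3658 TPM in FED, 2574 to 4865 in IF and 2335 to 5153 in FMD. The sinusoidal endothelial gene Oit3, 1 of 9 markers listed, was at 6.58 to 9.28 TPM in FED, 6.35 to 8.02 in IF and 8.85 to 17.2 in FMD. The 3 of 10 stellate cell and fibroblast markers listed, mostly Dcn, summed to 66.6 to 93.8 TPM in FED, 122 to 160 in IF and 107 to 217 in FMD. The cholangiocyte marker Krt19, 1 of 6 listed, was at 0.76 to 1.78 TPM in FED, 1.02 to 2.06 in IF and 1.22 to 4.07 in FMD. The 10 Kupffer cell, 10 leukocyte, 5 erythroid and 8 mitochondrially encoded genes looked for were not analysed here. The part of cell type content in the results below was not tested, and in whole liver a gene made by fewer cells cannot be told apart from less of its RNA per cell.

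In FMD vs FED livers, 6 of the 7 immediate early genes were called higher, and Junb was not. Called means a Benjamini-Hochberg adjusted p under 0.05 in limma and a change of more than 1.5-fold, a log2 fold change beyond 0.585. In the same comparison 35.5% of all 4665 genes tested were called higher. After scaling, Klf6 and Ier3 were called, 2 of 7, against 5.49% of all genes. In FMD vs IF livers Klf6 and Ier2 were called higher, 2 of 7 against 4.67% of all genes. After scaling limma called 0 of 7 in FMD vs IF, against 1.11% of all genes, while 5 of the 7 had an unadjusted p under 0.05 (23.6% of all genes). In IF vs FED livers limma called 0 of the 7 in either direction on either scale, against 10.3% of all genes called higher and 1.59% called lower as deposited and 3.69% and 3.45% after scaling, and only Dusp1 had an unadjusted p under 0.05 (39.3% of all genes).

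Leaving out Fosl1, for which no fold can be given, the median log2 fold change of the other 6 was 0.98 in FMD vs FED and 0.09 in IF vs FED, beside 0.48 and 0.24 over all genes. Fosl1 and Ier3 passed the filter of a mean TPM of at least 1 only through their FMD values, with mean TPM of 0 and 0.888 over the 6 FED and IF libraries, so these counts and medians are a description.

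**Figure D1:**
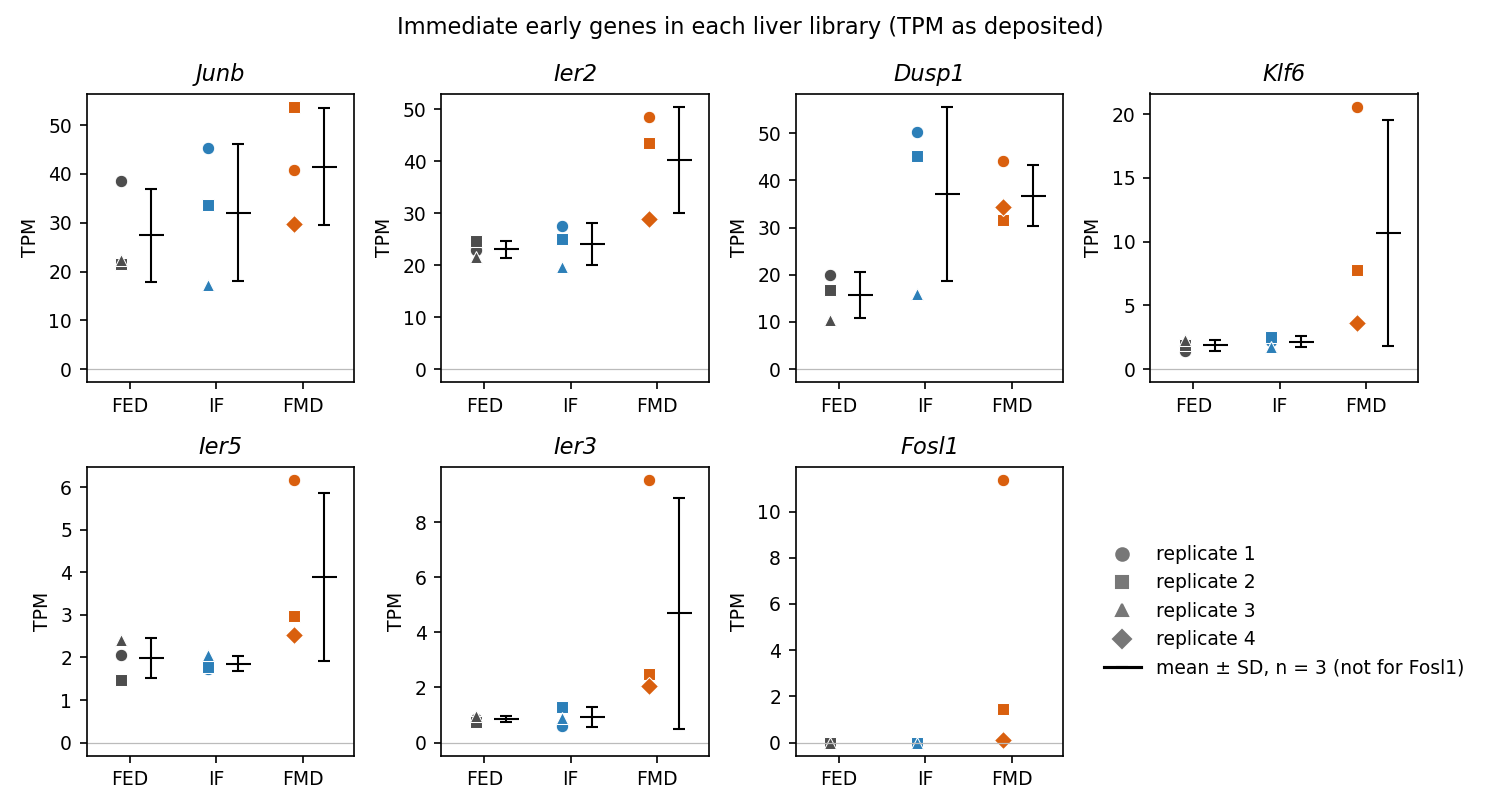
TPM as deposited (vertical axis, linear, own scale per gene) of the 7 immediate early genes in each of the 9 libraries, with the groups on the horizontal axis, symbols for replicate numbers and a bar for the mean ± SD (n = 3) except for Fosl1. FMD replicate 1 was the highest of the 9 libraries for Fosl1, Ier2, Ier3, Ier5 and Klf6, beside 65.8% of all genes tested. IF replicate 3 was the lowest IF library for Junb, Ier2, Klf6 and Dusp1, beside 51.3% of all genes tested.

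By level, the set fell into an abundant and a scarce class. In FED livers Junb was at 27.5 ± 9.55 TPM, Ier2 at 23.0 ± 1.63 and Dusp1 at 15.7 ± 4.89 (SD, n = 3). At this level Junb was above 79.9% of the listed genes. Ier5 followed at 1.98 ± 0.474 TPM, Klf6 at 1.87 ± 0.442 and Ier3 at 0.847 ± 0.115, and Fosl1 was listed at 0. Junb and Ier2 overlapped in their FED libraries, as did Ier5 and Klf6, while Ier2 lay above Dusp1, Dusp1 above Ier5 and Klf6 above Ier3 in all 3. In IF livers Dusp1, Junb and Ier2 overlapped at 37.1 ± 18.5, 32.1 ± 14.1 and 24.0 ± 4.02 TPM, followed by Klf6 at 2.14 ± 0.417 and Ier5 at 1.85 ± 0.174, which overlapped, and by Ier3 at 0.930 ± 0.352. In FMD livers Junb, Ier2 and Dusp1 overlapped at 41.5 ± 12, 40.3 ± 10.2 and 36.7 ± 6.46 TPM, followed by Klf6 at 10.6 ± 8.85, Ier3 at 4.69 ± 4.19 and Ier5 at 3.90 ± 1.98, which overlapped as well.

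Junb, an AP-1 subunit that tempers the activity of Jun, was at 38.5, 21.6 and 22.3 TPM in FED replicates 1, 2 and 3, at 45.3, 33.6 and 17.3 in IF, and at 40.8, 53.8 and 29.8 in FMD replicates 1, 2 and 4. The groups overlapped, with IF replicate 3 lowest and FMD replicate 2 highest. The log2 fold change was 0.16 in IF vs FED (95% interval -0.59 to 0.92, adjusted p = 0.733, limma), 0.59 in FMD vs FED (-0.16 to 1.34, adjusted p = 0.141) and 0.42 in FMD vs IF (-0.33 to 1.17, adjusted p = 0.364). After scaling these were -0.11, 0.05 and 0.16. No change of Junb was called, and each interval extends beyond 1.5-fold.

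Fosl1 encodes Fra-1, a Fos family partner in AP-1. It was listed at 0 in all 3 FED and all 3 IF libraries and at 11.4, 1.46 and 0.09 TPM in FMD replicates 1, 2 and 4. The gene was above 0 in every FMD library, with most of its signal in replicate 1. Against groups listed at 0 no fold change is given. The limma adjusted p was 0.0378 in FMD vs FED and 0.1 in FMD vs IF, and after scaling 0.0935 and 0.156. Fosl1 passed the filter of a mean TPM of at least 1 only through its FMD values, so these p-values are a description. The FMD vs FED call was lost when any single FED library, any single IF library or FMD replicate 2 was left out (adjusted p 0.0505 to 0.0835). It was also lost with no filter on low values (adjusted p = 0.0775), with 1 fit per pair of groups (0.0701) and with robust eBayes (0.0804), and the gene was not tested where a TPM of 1 was required in 3 libraries.

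Of 12 other AP-1 family genes 4 were listed and tested, and Fos, Fosb and Jun were not analysed here. Of the 4, 2 were called higher in FMD vs FED livers (1 after scaling), and in FMD vs IF livers 2 (1 after scaling), while in IF vs FED limma called 0 and 0 had an unadjusted p under 0.05. The shares of all genes called higher were 35.5% (5.49% after scaling) in FMD vs FED and 4.67% (1.11%) in FMD vs IF. The list median log2 fold change in FMD vs FED was 0.74, against 0.48 for all genes. Fosl2, encoding Fra-2, was at 1.34 to 2.05 TPM in FED, 1.60 to 2.14 in IF and 3.04 to 4.79 in FMD. Its log2 fold change was 0.95 in FMD vs FED (limma adjusted p = 0.00124) and 0.83 in FMD vs IF (adjusted p = 0.0240), and after scaling 0.56, short of the fold limit, and 0.61, still called. Jdp2, which encodes a repressor that dimerises with Jun proteins, was at 0.57 to 1.13 TPM in FED, 0.77 to 0.98 in IF and 1.48 to 4.15 in FMD. Jdp2 rose by 1.01 in FMD vs FED (adjusted p = 0.00428) and 0.97 in FMD vs IF (adjusted p = 0.0369). After scaling these were 0.68, still called, and 0.76, not called. With mean TPM of 0.853 in FED and 0.900 in IF, Jdp2 passed the filter of a mean TPM of at least 1 only through FMD. Its calls, and the list counts that hold it, are therefore a description.

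Ier2, which encodes a nuclear protein induced by growth factors, was at 22.9, 24.7 and 21.5 TPM in FED, 27.5, 24.95 and 19.6 in IF and 48.5, 43.6 and 28.9 in FMD replicates 1, 2 and 4. All 3 FMD libraries lay above all FED and IF libraries, which overlapped with each other. The log2 fold change was 0.75 in FMD vs FED (SE 0.19, limma adjusted p = 0.00657) and 0.70 in FMD vs IF (SE 0.19, adjusted p = 0.0487), and 0.05 in IF vs FED (95% interval -0.37 to 0.46, adjusted p = 0.865). Scaled, Ier2 was at 25.5 to 30.2 in FED and 26.4 to 38.2 in FMD, and these groups overlapped. Neither call was kept after scaling, with 0.22 in FMD vs FED (adjusted p = 0.319) and 0.44 in FMD vs IF (adjusted p = 0.112). The FMD vs IF call was also lost when any single library other than FMD replicate 4 was left out (adjusted p 0.0756 to 0.176).

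Ier3, also known as IEX-1, encodes a regulator of apoptosis and of NF-κB and ERK signalling. It was at 0.85, 0.73 and 0.96 TPM in FED, 0.60, 1.30 and 0.89 in IF and 9.52, 2.5 and 2.05 in FMD replicates 1, 2 and 4. Every FMD library was above every FED and IF library, and replicate 1 was far above the other FMD libraries. Ier3 passed the filter only through its FMD values (mean TPM 0.888 over FED and IF). Its adjusted p and calls in the FMD comparisons are therefore a description. The log2 fold change in FMD vs FED was 1.39 (SE 0.37, limma adjusted p = 0.00898), and after scaling it was 1.03 and still called (adjusted p = 0.0430). Without FMD replicate 1 it was 0.83 (adjusted p = 0.00208). The call on scaled values was lost without any single FED or IF library (adjusted p 0.0584 to 0.113) and without FMD replicate 1 (0.57, adjusted p = 0.0253, short of the fold limit). Against IF the change was 1.34 (95% interval 0.51 to 2.17) with an adjusted p of 0.0531, which missed the limit. This comparison was called without FMD replicate 1 (0.78, adjusted p = 0.0237), 2 (1.57, adjusted p = 0.0479) or 4 (1.67, adjusted p = 0.0120). The IF vs FED change of Ier3 was 0.05 (-0.78 to 0.88, adjusted p = 0.930).

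Ier5, which encodes a protein that promotes the activity of heat shock factor 1, was at 2.05, 1.48 and 2.42 TPM in FED, 1.73, 1.77 and 2.05 in IF and 6.17, 2.98 and 2.54 in FMD replicates 1, 2 and 4. The FMD libraries were all above the others, with replicate 4 close to the highest FED library. The log2 fold change was 0.66 in FMD vs FED (SE 0.24, limma adjusted p = 0.0305), 0.71 in FMD vs IF (adjusted p = 0.0779) and -0.06 in IF vs FED (95% interval -0.58 to 0.47, adjusted p = 0.873). After scaling the FMD vs FED value was 0.25 (adjusted p = 0.370) and the groups overlapped. The call was lost without FED replicate 1 (0.68, adjusted p = 0.0638), FED replicate 2 (0.53, adjusted p = 0.107) or FMD replicate 1 (0.34, adjusted p = 0.0632), with no filter on low values (adjusted p = 0.0541) and with 1 fit per pair of groups (adjusted p = 0.0604).

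Heat shock genes, to which Ier5 is linked by its known role, were represented by 5 of 17, all tested. Of the 5, 4 were called higher in FMD vs FED livers (2 after scaling), with a list median of 0.93 against 0.48 for all genes. In FMD vs IF livers 3 were called (0 after scaling, where 3 had an unadjusted p under 0.05), and in IF vs FED limma called 0, with 3 at an unadjusted p under 0.05. Of all genes, 35.5% (5.49% after scaling) and 4.67% (1.11%) were called higher in the FMD comparisons with FED and IF. Hspa8, the constitutive Hsp70 chaperone, was at 519 to 649 TPM in FED, 832 to 935 in IF and 1199 to 2341 in FMD, a log2 fold change of 1.57 in FMD vs FED (adjusted p = 0.000354), and 1.02 and called after scaling. The change in the Hsp90 chaperone gene Hsp90ab1 was 1.16 (adjusted p = 0.000297), and 0.60 and called after scaling. The change in Dnaja1, an Hsp70 co-chaperone gene, was 0.93 (adjusted p = 0.000248), and 0.38 and not called after scaling.

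Klf6, a zinc finger factor of the Krüppel-like family known from activated stellate cells and also made by hepatocytes, had the highest fold change in FMD vs FED of the 6 members for which a fold is given. It was at 1.40, 1.92 and 2.28 TPM in FED, 2.23, 2.51 and 1.69 in IF and 20.6, 7.77 and 3.59 in FMD replicates 1, 2 and 4. FED and IF overlapped, and all FMD libraries lay above both, although FMD replicate 1 was 5.73 times replicate 4. The log2 fold change in FMD vs FED was 1.75 (SE 0.42, limma adjusted p = 0.00551), and after scaling it was 1.31 and still called (adjusted p = 0.0299). Without FMD replicate 1 it was 1.16 (adjusted p = 0.00343). The call on scaled values was lost without FED replicate 1, 2 or 3 or FMD replicate 2 (adjusted p 0.0599 to 0.106), and without FMD replicate 1 the scaled value was 0.83 (adjusted p = 0.0310). In FMD vs IF it was 1.61 (SE 0.42, adjusted p = 0.0460), and after scaling 1.36 and not called (adjusted p = 0.0660). That call was lost without any single FED or IF library or FMD replicate 2 (adjusted p 0.0634 to 0.159), and without FMD replicate 1 the value was 1.02 (adjusted p = 0.0395). The IF vs FED change was 0.14 (95% interval -0.80 to 1.07, adjusted p = 0.827). Of the stellate cell and fibroblast markers, Dcn was at 64.1 to 90.1 TPM in FED, 120 to 156 in IF and 106 to 213 in FMD. As deposited it was highest in FMD replicate 1 as Klf6 was, and as 65.8% of all genes tested were. After scaling, mean Dcn was 93.8 in FED, 140 in IF and 120 in FMD, beside 2.25, 2.13 and 8.17 for Klf6. Col1a1 (0.90 to 1.63 TPM in FED, 0.93 to 0.95 in IF and 0.27 to 1.60 in FMD) and Pdgfrb (1.36 to 2.02, 1.63 to 2.32 and 0.95 to 2.40) overlapped between all groups. The part of these cells in the Klf6 result was not tested.

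Of 14 other Krüppel-like factors, 6 were listed and 5 tested, and all 5 were called higher in FMD vs FED livers as deposited and after scaling, with a list median of 1.33. In IF vs FED livers 4 of the 5 were called higher (2 after scaling) and in FMD vs IF livers 2 (1 after scaling). Among all genes 35.5% (5.49% after scaling) were called higher in FMD vs FED, 10.3% (3.69%) in IF against FED and 4.67% (1.11%) in FMD against IF. Klf10, a factor induced by TGF-β, was at 4.16 to 7.30 TPM in FED, 6.56 to 9.35 in IF and 16.5 to 23.4 in FMD. Klf10 rose by 1.58 in FMD vs FED (adjusted p = 0.000272) and 1.22 in FMD vs IF (adjusted p = 0.0135), both also called after scaling at 1.08 and 0.97. Klf13 was at 3.76 to 5.03 TPM in FED, 9.81 to 11.0 in IF and 12.9 to 16.0 in FMD, and rose by 1.07 in IF vs FED (adjusted p = 0.000502) and 1.47 in FMD vs FED (adjusted p = 3.3e-05), also called after scaling at 0.83 and 0.98. Klf16 was called higher in both diets against FED on both scales. Klf3 and Klf9, the latter a glucocorticoid target, were called in both diets against FED as deposited and in FMD vs FED alone after scaling.

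Dusp1, also called MKP-1, was the member with the most uneven IF libraries. It was at 20.0, 16.7 and 10.4 TPM in FED, 50.2, 45.2 and 16.0 in IF replicates 1, 2 and 3 and 44.0, 31.7 and 34.5 in FMD replicates 1, 2 and 4. IF replicates 1 and 2 were above all FMD libraries, while IF replicate 3 lay within the FED range. The log2 fold change in FMD vs FED was 1.21 (SE 0.37, limma adjusted p = 0.0163). After scaling it was 0.68 and no longer called (adjusted p = 0.209), although the libraries still did not overlap, at 12.3 to 24.5 in FED and 27.8 to 31.5 in FMD. Without FED replicate 3 the value as deposited was 0.95 and not called (adjusted p = 0.0635).

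In IF vs FED livers Dusp1 had a log2 fold change of 1.08 (95% interval 0.26 to 1.91, limma adjusted p = 0.0579), just short of a call, and 0.82 after scaling (adjusted p = 0.165). Without IF replicate 3 it was 1.59 and called (adjusted p = 0.00426), also after scaling at 1.29. Without FMD replicate 1, which bears on this comparison only through the shared spread and the adjustment, the adjusted p was 0.0388, and with 1 fit per pair of groups it was 0.0396. In FMD vs IF the change was 0.13 (-0.70 to 0.95, adjusted p = 0.810), and -0.14 after scaling. IF replicate 3 was the lowest IF library also for Junb, Ier2 and Klf6, making 4 of 7 members, against 51.3% of all genes tested.

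**Figure D2:**
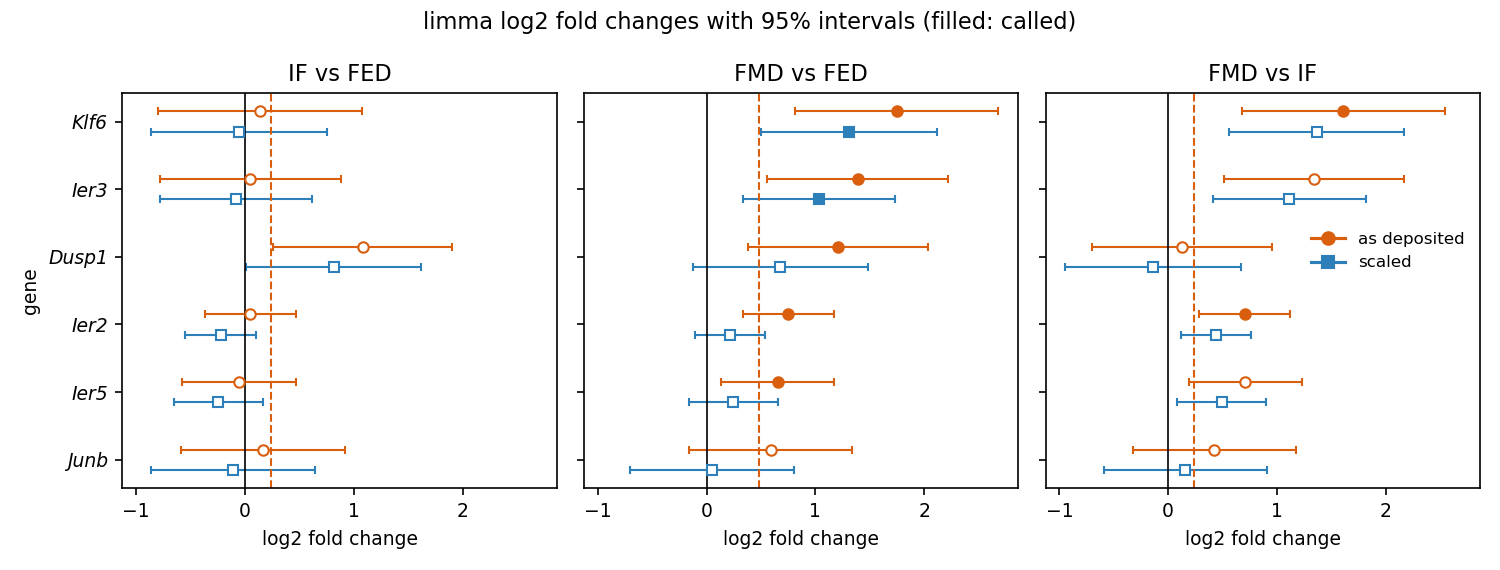
Log2 fold changes (horizontal axis) of the 6 members with a fold, in the 3 comparisons, from limma on log2(TPM + 1) as deposited (orange circles) and scaled (blue squares), with 95% intervals, filled where called and with a dashed line at the median of all 4665 genes as deposited. In FMD vs FED Klf6 (1.75 and 1.31) and Ier3 (1.39 and 1.03) are filled on both scales, and in IF vs FED no point is filled.

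The DUSP family beside Dusp1 was represented by 5 of 20 genes, all tested. Called higher were 2 in FMD vs FED livers (0 after scaling, where 0 had an unadjusted p under 0.05), in FMD vs IF 1 (0 after scaling, where 2 had), and in IF vs FED 0 as deposited, where 0 had, and 1 lower after scaling. The 2 of 5 in FMD vs FED stand beside 35.5% of all genes called higher (5.49% after scaling), and the 1 of 5 in FMD vs IF beside 4.67% (1.11%). Dusp6, a cytoplasmic phosphatase specific for ERK, was at 11.9, 15.9 and 18.5 TPM in FED, 9.10, 9.27 and 13.4 in IF and 34.7, 22.4 and 16.6 in FMD. Its log2 fold change in FMD vs IF was 1.10 (limma adjusted p = 0.0336), and 0.84 and not called after scaling. The IF vs FED change was -0.50 (adjusted p = 0.165), and -0.77 and called lower after scaling. Dusp10 and Dusp16, phosphatases with a preference for JNK and p38, were the 2 called in FMD vs FED as deposited, each at 0.63.

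Upstream of the set, 20 of 44 MAP kinase cascade genes were listed and 18 tested. Called higher were 1 in IF vs FED (0 after scaling, where 5 had an unadjusted p under 0.05), 6 in FMD vs FED (2 after scaling) and 2 in FMD vs IF (1 after scaling), with a list median of 0.55 in FMD vs FED against 0.48 for all genes. The 6 of 18 in FMD vs FED were near the 35.5% of all genes called higher, and the other shares of all genes were 5.49% for FMD vs FED after scaling, 10.3% (3.69% after scaling) for IF vs FED and 4.67% (1.11%) for FMD vs IF. Mknk2, a kinase that phosphorylates the cap-binding factor eIF4E, was at 22.7 to 43.2 TPM in FED, 47.4 to 57.7 in IF and 93.5 to 163 in FMD. Mknk2 rose by 2.03 in FMD vs FED (limma adjusted p = 0.000233) and 1.36 in FMD vs IF (adjusted p = 0.0193), also called after scaling at 1.48 and 1.09. Map3k5, the stress kinase ASK1, had a change of 1.70 in FMD vs FED (adjusted p = 7.41e-05), and 1.21 and called after scaling.

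The regulators of serum response factor and CREB numbered 8 of 17 in the table, all tested, of which 4 were called higher in IF vs FED (1 after scaling), 3 in FMD vs FED (1 after scaling) and 1 in FMD vs IF (1 after scaling). Over all genes these shares were 10.3% (3.69% after scaling), 35.5% (5.49%) and 4.67% (1.11%), so that the 3 of 8 in FMD vs FED were near the background. The gene called in each was Sik1, a cAMP-induced kinase that restrains CREB coactivators. It was at 2.33 to 3.37 TPM in FED, 6.70 to 7.98 in IF and 14.2 to 22.2 in FMD, without overlap between groups. Sik1 rose by 1.04 in IF vs FED (limma adjusted p = 0.00318), 2.33 in FMD vs FED (adjusted p = 1.69e-05) and 1.29 in FMD vs IF (adjusted p = 0.00693), and 0.83, 1.86 and 1.03 after scaling. Crtc2, a CREB coactivator of the fasting liver, had a change of 0.83 in IF vs FED (adjusted p = 0.00107) and 0.76 in FMD vs FED (adjusted p = 0.000666), neither called after scaling.

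Of 22 glucocorticoid response genes 9 were listed and tested. Called higher were 6 in IF vs FED (5 after scaling), 8 in FMD vs FED (6 after scaling) and 1 in FMD vs IF (0 after scaling, where 3 had an unadjusted p under 0.05), with list medians of 1.11, 2.15 and 0.54. All genes had shares of 10.3% (3.69% after scaling), 35.5% (5.49%) and 4.67% (1.11%) called higher in the same comparisons. Fkbp5, a chaperone of the glucocorticoid receptor, was at 2.03 to 5.31 TPM in FED, 18.4 to 30.9 in IF and 33.9 to 72.9 in FMD. Fkbp5 rose by 2.34 in IF vs FED (limma adjusted p = 0.00119) and 3.54 in FMD vs FED (adjusted p = 4.64e-05), both also called after scaling. Per1, a clock gene that glucocorticoid also induces, was at 1.0 to 2.54 TPM in FED, 10.3 to 11.0 in IF and 14.97 to 16.4 in FMD, with changes of 2.08 (adjusted p = 0.000117) and 2.62 (adjusted p = 9.58e-06) against FED. In IF replicate 3, the low IF library for Dusp1, Per1 was at 10.4 TPM, between the other IF libraries. Fkbp5, at 18.4 TPM, was lowest there, as were Mt1, Mt2, Sgk1 and Ddit4 of the same list. Klf9 was between the other IF libraries, and Tsc22d3 and Angptl4 were highest in IF replicate 3. Of all genes tested, 51.3% were lowest in that library among the IF libraries.

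Of 23 genes that bind or degrade short-lived mRNAs with AU-rich elements, 9 were listed and tested, with 3 called higher in IF vs FED (1 after scaling), 3 in FMD vs FED (2 after scaling) and 1 in FMD vs IF (0 after scaling, where 3 had an unadjusted p under 0.05). Beside these stand 10.3% (3.69% after scaling), 35.5% (5.49%) and 4.67% (1.11%) of all genes called higher, and the 3 of 9 in FMD vs FED were near that background. Zfp36l2, which promotes such decay, was at 13.0 to 17.1 TPM in FED, 23.5 to 34.6 in IF and 29.8 to 43.1 in FMD. Its log2 fold change was 0.91 in IF vs FED (limma adjusted p = 0.00636), and 0.65 and not called after scaling, and 1.31 in FMD vs FED (adjusted p = 0.000398), and 0.78 and called after scaling. Of 16 NF-κB feedback genes 6 were tested, and limma called 0 in each comparison on either scale, with 2 at an unadjusted p under 0.05 in FMD vs FED, 1 in FMD vs IF and 0 in IF vs FED as deposited. Nfkbia, the NF-κB inhibitor, was at 27.2 to 52.0 TPM in FED, 28.9 to 37.4 in IF and 41.7 to 50.8 in FMD.

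Beyond the set, 29 of 58 other immediate early genes were listed and 25 tested, Sik1, Per1, Klf10, Dusp6, Nfkbia and Zfp36l2 among them. Called higher were 9 in IF vs FED (7 after scaling), 16 in FMD vs FED (14 after scaling) and 9 in FMD vs IF (6 after scaling), and called lower were 1 in IF vs FED (2 after scaling) and 0 in FMD vs FED (1 after scaling). For all genes the shares called higher were 10.3% (3.69% after scaling) in IF vs FED, 35.5% (5.49%) in FMD vs FED and 4.67% (1.11%) in FMD vs IF. The list medians were 0.45, 1.31 and 0.68, against 0.24, 0.48 and 0.24 for all genes. Egr1, Fos and Jun, the classical members of the class, were not analysed here.

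Gadd45b, a stress sensor that acts on p38 and JNK signalling, was at 0.71 to 1.09 TPM in FED, 4.88 to 7.81 in IF and 18.8 to 31.8 in FMD, with no overlap between groups. Its log2 fold change was 1.95 in IF vs FED (limma adjusted p = 0.000323), 3.63 in FMD vs FED (adjusted p = 3.14e-06) and 1.68 in FMD vs IF (adjusted p = 0.00378), each also called after scaling. Maff, encoding a small Maf factor, fell in IF and rose in FMD against FED. It was at 1.40 to 2.37 TPM in FED, 0.34 to 0.76 in IF and 11.9 to 25.8 in FMD. The Maff change was -0.84 in IF vs FED (adjusted p = 0.0285), 2.77 in FMD vs FED (adjusted p = 3.3e-05) and 3.61 in FMD vs IF (adjusted p = 4.08e-05), each also called after scaling. Myc, the growth-promoting factor, was at 0.78 to 1.30 TPM in FED, 3.40 to 7.71 in IF and 4.70 to 23.7 in FMD, and was called higher in FMD vs FED (2.37, adjusted p = 0.00192) and IF vs FED (1.54, adjusted p = 0.0320), also after scaling.

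Cebpb, a liver transcription factor that is induced by cAMP and by injury, was at 60.9 to 77.4 TPM in FED, 87.3 to 96.1 in IF and 179 to 213 in FMD. It was called higher in FMD vs FED (1.57, limma adjusted p = 2.13e-05) and FMD vs IF (1.13, adjusted p = 0.00195), also after scaling, and its change in IF vs FED was 0.44. Id1, an inhibitor of helix-loop-helix factors, was at 4.81 to 9.15 TPM in FED, 8.16 to 15.1 in IF and 86.8, 30.0 and 32.3 in FMD replicates 1, 2 and 4. Id1 rose by 2.48 in FMD vs FED (adjusted p = 0.00065) and 1.81 in FMD vs IF (adjusted p = 0.0274), also called after scaling.

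**Figure D3:**
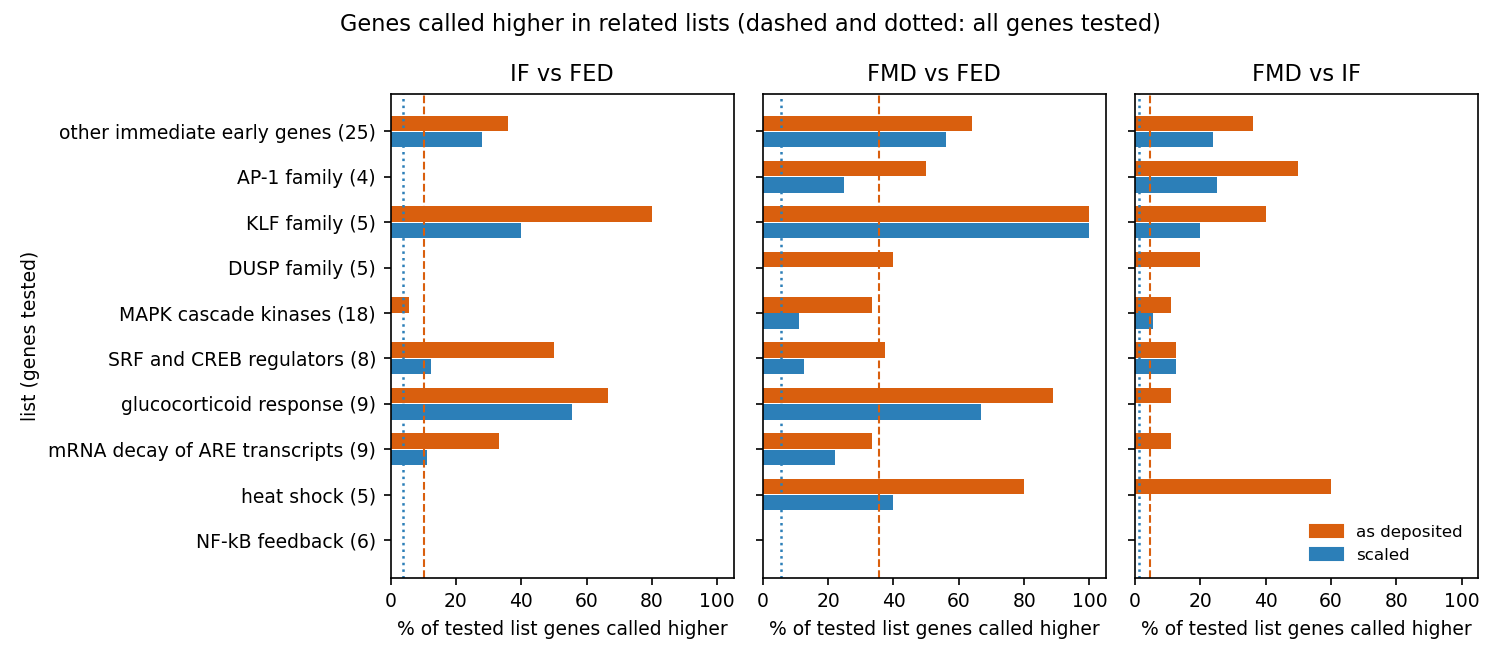
Percent of the tested genes of each related list (numbers of genes tested in brackets) called higher in the 3 comparisons, as deposited (orange) and scaled (blue), with the percent over all 4665 genes as a dashed (as deposited) and a dotted (scaled) line. In FMD vs FED all 5 Krüppel-like factors are called on both scales, 16 and 14 of 25 other immediate early genes, and 0 of 6 NF-κB feedback genes.

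The 7 members differed in how their values ran over single libraries. FMD replicate 1 was the highest of the 9 libraries for 5 of 7 members (Fosl1, Ier2, Ier3, Ier5 and Klf6), against 65.8% of all genes tested, and for 4 after scaling against 21.2%. The same 5 fell in the order replicate 1, 2 and 4 within FMD, against 43.2% of all genes, and 4 did after scaling against 20.2%. Junb and Dusp1 stood apart from these, both being highest in replicate 1 within FED and IF and lowest in replicate 3 within IF. FMD did not overlap with FED for 6 of 7 members, against 68% of all genes, and for 4 after scaling (Fosl1, Ier3, Klf6 and Dusp1) against 18.5%. FMD did not overlap with IF for 5 of 7, against 33.6%, and for 4 after scaling (Fosl1, Ier3, Ier5 and Klf6) against 12.7%. Fosl1 and Ier3, which passed the filter only through their FMD values, are in each of these FMD counts. The counts are therefore a description. IF overlapped with FED for all 6 members above 0 in these groups, while 53.8% of all genes were higher in IF without overlap.

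The genes with the most similar patterns were sought by the root-mean-square difference of scaled log2(TPM + 1), each minus its mean, over the 9 libraries. For Klf6 the closest of all genes tested was Ier3, another member, at a difference of 0.27 beside a spread of Klf6 itself of 0.78. The next were Btg3, an antiproliferative gene, at 0.27 and 1700017B05Rik at 0.28. For Ier3 they were 1700017B05Rik at 0.20, Btg3 at 0.22 and Smox, which encodes spermine oxidase, at 0.23, with a spread of 0.64. Btg3 was at 3.49 to 4.52 TPM in FED, 4.35 to 5.98 in IF and 30.5, 9.41 and 8.67 in FMD replicates 1, 2 and 4, the same order within FMD as Klf6 and Ier3.

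For Fosl1 the closest genes were Sprr1a, a small proline-rich protein gene of squamous epithelia, at 0.18, Cd63, a tetraspanin gene of lysosomes, at 0.21 and Anxa2, encoding annexin A2, at 0.26, with a spread of 1.01. Sprr1a was also listed at 0 in all FED and IF libraries and at 17.7, 1.65 and 0.13 TPM in FMD replicates 1, 2 and 4. Anxa2 was at 6.59 to 8.96 TPM in FED, 6.62 to 7.62 in IF and 156, 20.4 and 8.85 in FMD, so that FMD replicate 4 lay within the FED range. These genes share with Fosl1 a value in FMD replicate 1 far above all others.

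The remaining members had less similar or flatter patterns. For Ier5, with a spread of 0.29, the closest were Pbdc1 at 0.11, the Ran-binding gene Ranbp1 at 0.12 and the ribosomal protein gene Rpl12 at 0.12. For Ier2, with a spread of 0.24, they were Rab3gap2 at 0.11, the methyltransferase gene Setd7 at 0.11 and Slc35e1 at 0.12. For Junb, with a spread of 0.43, they were the TGF-β receptor gene Tgfbr2 at 0.28, Dedd2 at 0.30 and Dtd1 at 0.30. For Dusp1, with a spread of 0.58, they were Zfp746 at 0.39, Jade2 at 0.39 and Xpot, encoding an exportin for tRNA, at 0.40. Zfp746, Jade2 and Xpot were called higher in IF vs FED on both scales, at 0.98, 0.99 and 0.86 as deposited. Among all genes 10.3% (3.69% after scaling) were. In FMD vs FED they were called as deposited, at 1.03, 0.95 and 1.10, and only Jade2 after scaling. The shares of all genes there were 35.5% and 5.49%. They were picked for likeness to Dusp1 over these same libraries, so their calls are a description.

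**Figure D4:**
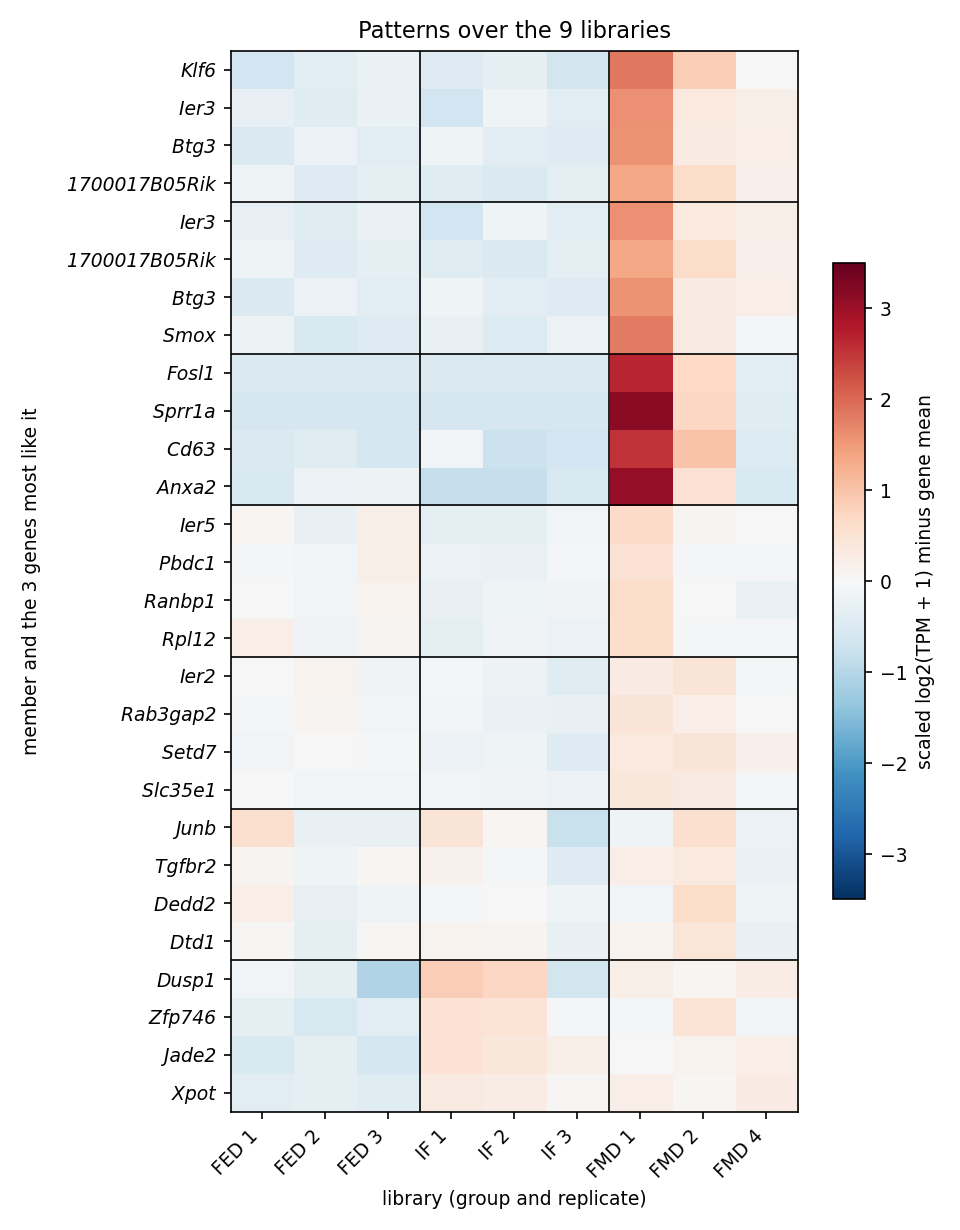
Scaled log2(TPM + 1) minus the mean of each gene (colour) in the 9 libraries (columns) for each member and, under it, the 3 genes most like it (rows, blocks parted by lines). Klf6, Ier3 and Fosl1 and their closest genes are highest in FMD replicate 1, and Dusp1 and its closest genes are higher in IF replicates 1 and 2 than in FED.

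Counts of called members changed with single libraries. In FMD vs FED 4 to 6 members were called with 1 library left out, with 4 in the absence of FED replicate 1, 2 or 3. After scaling 0 to 3 were called, 0 without FED replicate 1, 2 or 3 and 3 without FMD replicate 4, and 1 without any other single library. In FMD vs IF, where 2 were called with all libraries, the count was 0 without any single FED or IF library, 2 without FMD replicate 1 (Ier3 and Klf6), 1 without FMD replicate 2 (Ier3) and 5 without FMD replicate 4. After scaling it was 3 without FMD replicate 4 and otherwise 0. In IF vs FED 1 member, Dusp1, was called without IF replicate 3 on both scales and without FMD replicate 1 as deposited. The error in these tests is the spread between mice within groups, pooled over all groups in 1 fit and moderated over genes by eBayes. Both diet comparisons share the FED libraries.

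**Figure D5:**
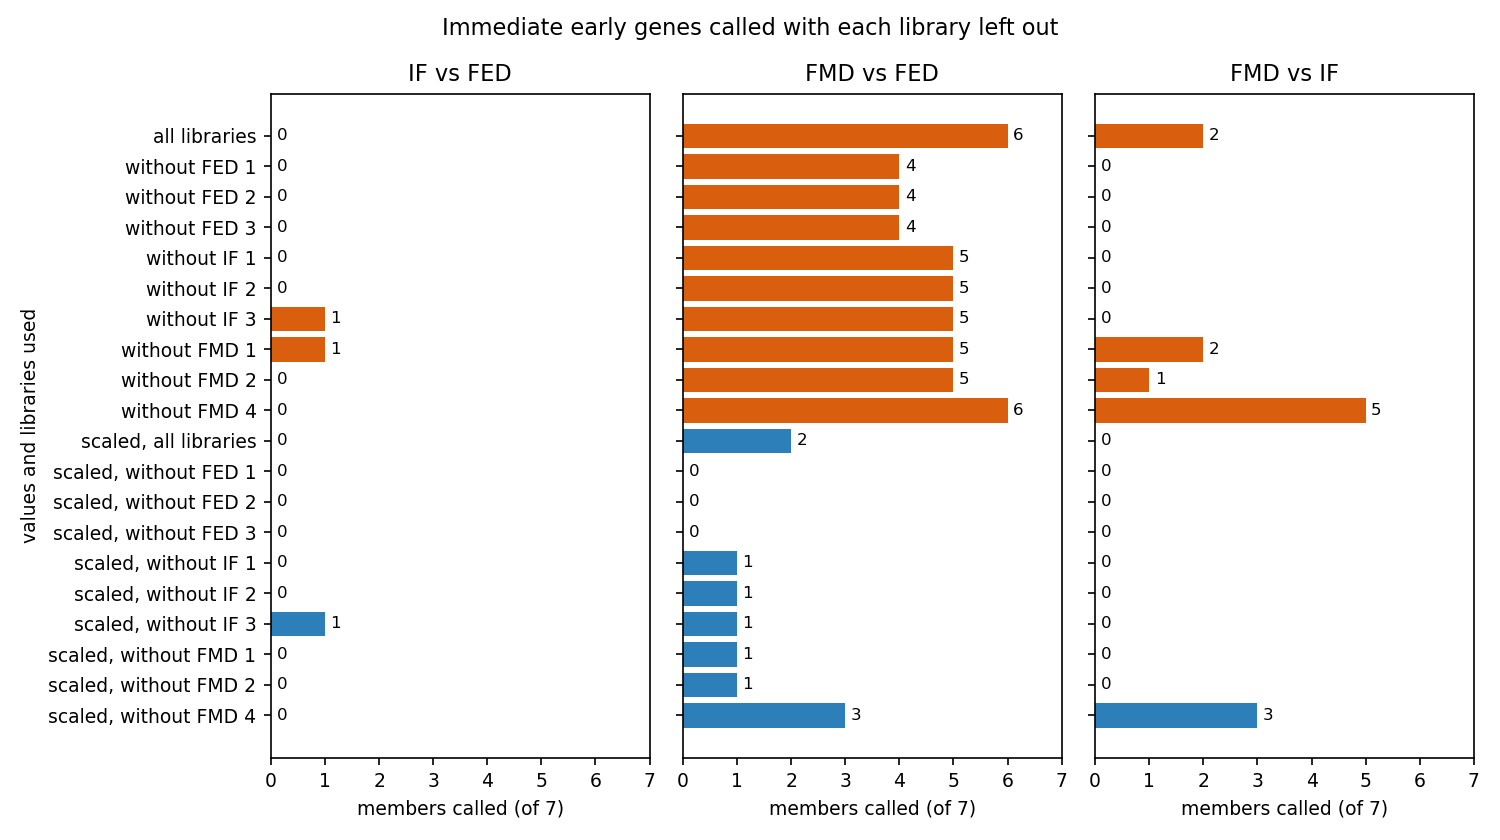
Number of the 7 members called (horizontal axis) with all libraries and with each of the 9 left out (rows), as deposited (orange) and scaled (blue), in the 3 comparisons. FMD vs FED counts run from 4 to 6 as deposited and from 0 to 3 scaled, and FMD vs IF reaches 5 without FMD replicate 4.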

How the data were processed

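Livers of 9 mice, 3 per group, were compared, grouped by the treatment in the labels. The authors made strand-specific oligo-dT libraries and sequenced them on DNBSEQ. The submitters' processing notes name DESeq2 and the build mm39, and the aligner is not given in the sources used here. The deposited values are TPM per gene, 1 column per library, for 5608 genes. TPM keeps no depth, so no counting interval is given.

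The test used log2(TPM + 1), so that a fold change is on that scale and understates the change of low genes. All 9 libraries entered 1 limma 3.58.1 model (R 4.3.3, lmFit, eBayes with a trend) over the 4665 genes whose mean TPM reached 1, with Benjamini-Hochberg adjustment over all of them. A call needed an adjusted p below 0.05 together with a log2 fold change beyond 0.585 in either direction. The fit was also run on simulated data with independent normal noise, equal spread in all groups and no shift common to a library. That run does not test the fit under the library shifts and uneven spread of these data. Scaled values are TPM divided by a library's factor, the median over genes of its value relative to the geometric mean over libraries. Other steps ran in python 3.11.15 with pandas 2.3.3, numpy 2.4.6 and matplotlib 3.10.9. Promoter letters and their coordinates come from RefSeq (GRCm38.p6), another build than that of the notes.

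The members and gene lists were chosen with earlier results of these data known. Named are all members, genes called in at least 1 comparison from each list (a part of those allowed, which were up to 6 per list and comparison in order of adjusted p) with any gene needed to state a count, and the 3 genes most like each member. Nfkbia, which was not called, was named after its values were seen. The settings varied were the pseudocount (0.1, 0.5), the filter on low values, the scaling or quantile normalization, separate fits for each pair of groups, the trend, robust eBayes, a replicate block, the limits of a call, and the omission of each library. A filter of a TPM of at least 1 in 3 libraries was added after seeing the data. The labels do not say that replicate numbers pair mice.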

Additional observations from a re-analysis of the deposited data

How the results depend on the processing

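Of 627 values of single members under the alternatives, 418 kept their direction and their side of the limits, 121 were no longer called, 21 became called and 67 changed sign. In IF vs FED 1 member, Dusp1, was called with 1 fit per pair of groups, with the replicate block and with scaled values and the replicate block, in place of 0. With 1 library left out, 0 to 1 were called. In FMD vs FED 4 were called with no filter and with 1 fit per pair, neither of which called Fosl1 or Ier5, and 5 with robust eBayes, which did not call Fosl1. There 2 were called with a mean TPM of at least 5, which left 3 members tested, 2 after scaling, 2 after quantile normalization, 3 with scaled values and the replicate block and 3 at an adjusted p under 0.01, in place of 6. With 1 library left out, 0 to 6 were called. In FMD vs IF the count of 2 became 0 with no filter, after scaling, after quantile normalization, with 1 fit per pair and at an adjusted p under 0.01. It became 1 with a mean TPM of at least 5, without the trend and with robust eBayes. With the replicate block it was 5, and with scaled values and the replicate block 4. Number 4 occurs only in FMD, so the block gave FMD replicate 4 a term of its own. Both FMD comparisons with the block therefore rested on FMD replicates 1 and 2 alone. As deposited, the FMD vs IF count without FMD replicate 4 was 5 as well. With 1 library left out, 0 to 5 were called.

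None of the values that changed sign was called on either side. In IF vs FED the log2 fold changes of Junb, Ier2, Ier3 and Klf6 were -0.11, -0.22, -0.084 and -0.052 after scaling, with and without the replicate block, and -0.10, -0.22, -0.11 and -0.058 after quantile normalization. With 1 library left out they ran from -0.38 to 0.54 for Junb, -0.31 to 0.18 for Ier2, -0.21 to 0.18 for Ier3, -0.38 to 0.050 for Ier5 and -0.18 to 0.24 for Klf6. Junb in FMD vs FED was -0.052 with scaled values and the replicate block and -0.19 to 0.85 with 1 library left out, and in FMD vs IF -0.19 to 0.72. Dusp1 in FMD vs IF was -0.14 after scaling and after quantile normalization, -0.22 with the replicate block, -0.55 with scaled values and the block, and -0.62 to 0.42 with 1 library left out. The cause of these changes was not tested.

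The labels do not say whether a shared replicate number marks a pair. Over 7 same-numbered pairs of libraries from different groups the deviations from the group means correlated at 0.00348 to 0.177, above 0.1 in 4. Pairs with different numbers ran from -0.202 to 0.211, and 5 of 8 libraries correlated best with one of their own number. These values do not settle whether the numbers mark pairs. The main fit has no block because no label gives pairs. With the replicate block Dusp1 in IF vs FED, higher in IF in all 3 same-numbered pairs, was called at 1.08 (adjusted p = 0.00333), and at 0.82 after scaling (adjusted p = 0.0101). Unknown depth means that values near 0, such as those of Fosl1, carry an error that could not be given.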
